A study of Mus musculus with 8 samples.

Results

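The 10 genes described here are markers of the fibroblasts of the adventitia, the outer coat of the aortic wall. They were taken by gene symbol from the 35896 genes of the count table: Thy1, Pdgfra, Pdgfrb, Dcn, Lum, Dpt, Pi16, Cd34, Fap and Ly6a. All 10 passed the filter on low counts, which left 17182 genes for testing. The list was built around Thy1, which was picked because its level rose during angiotensin II (AngII) infusion. The values of Thy1 in comparisons that hold the AngII group are therefore given as a description with no test, and counts of genes called in the tests are over the 9 other genes.

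Unsorted tissue from a part of each aorta of male C57BL6 mice was profiled by ribosomal-RNA-depleted RNA sequencing in 8 libraries, 2 per group. Each library pooled tissue from 2 of the 16 mice. The AngII group received 2.8 mg/kg/d AngII from osmotic minipumps for 2 weeks, starting at 11 weeks of age, and its aortas were taken when the infusion ended. The AngII+2W and AngII+3W groups received the same infusion, and their aortas were taken 2 and 3 weeks after it ended. The CTRL group was untreated littermates of matched age. Per the study's methods controls were taken at each of the 3 harvest times, and the labels do not say which of them are in the 2 CTRL libraries. The labels name no transgene or deletion in any group. With 2 libraries per group, each a pool, the spread between libraries is the only error available, and an exact permutation test of 2 against 2 could not go below p = 0.33. The tests therefore come from edgeR's quasi-likelihood model, fitted to all genes and all 8 libraries, with Benjamini-Hochberg adjustment over the 17182 genes.

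Adventitial fibroblasts make the collagen-rich outer sheath of arteries, house progenitor-type cells and can turn into matrix-secreting activated fibroblasts when pressure or inflammation rises. Platelet-derived growth factors (PDGF) acting on the receptors Pdgfra and Pdgfrb drive their growth. Decorin (Dcn), lumican (Lum) and dermatopontin (Dpt) are secreted proteins that bind collagen fibrils, and fibroblast activation protein (Fap) is a membrane protease known from activated fibroblasts. Pi16, Cd34 and Ly6a (the Sca-1 antigen) are used to mark the progenitor-type adventitial cells, and Thy1 (CD90) is a small surface glycoprotein of fibroblasts. Several of the 10 are not exclusive to fibroblasts: Thy1 is also carried by T cells and neurons, Cd34 and Ly6a by endothelial cells, and Pdgfrb by pericytes and smooth muscle cells. In RNA from whole tissue, a change in the number of fibroblasts and a change in RNA per fibroblast cannot be told apart.

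The proximal promoters of 3 of the genes are shown because this receptor gene, matrix gene and progenitor marker carry the library order described further on, and because their RefSeq start lies within 50 bases of the start in the gene annotation used for coordinates. RefSeq promoters, which run from 250 bases before the start to 50 bases after it on GRCm38.p6, matched 4 of the 10 genes. The RefSeq start of Pi16 lies 1202 bases from the annotated gene start, and its promoter is not printed. The 3 sequences are written on the coding strand, and capitals mark the letters TATAAA.
Pdgfra, chr5:75152001-75152300 (+): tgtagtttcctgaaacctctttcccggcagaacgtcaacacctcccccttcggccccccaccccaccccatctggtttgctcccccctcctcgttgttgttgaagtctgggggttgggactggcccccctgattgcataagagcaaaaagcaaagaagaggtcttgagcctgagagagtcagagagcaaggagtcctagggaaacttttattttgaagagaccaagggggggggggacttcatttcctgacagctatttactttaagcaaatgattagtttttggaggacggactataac
Dpt, chr1:164796413-164796712 (+): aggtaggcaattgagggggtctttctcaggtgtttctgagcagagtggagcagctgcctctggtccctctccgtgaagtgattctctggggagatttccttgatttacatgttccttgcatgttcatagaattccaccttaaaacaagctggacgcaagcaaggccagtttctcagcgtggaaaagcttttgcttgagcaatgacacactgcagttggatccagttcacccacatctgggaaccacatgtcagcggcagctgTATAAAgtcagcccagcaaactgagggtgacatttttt
Cd34, chr1:194938571-194938870 (+): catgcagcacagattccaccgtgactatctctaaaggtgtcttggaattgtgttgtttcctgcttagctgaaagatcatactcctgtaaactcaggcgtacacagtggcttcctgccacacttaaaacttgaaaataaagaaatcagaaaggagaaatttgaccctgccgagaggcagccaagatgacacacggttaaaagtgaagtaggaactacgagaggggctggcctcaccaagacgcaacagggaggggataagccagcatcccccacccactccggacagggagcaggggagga
Dpt was the only one of the 3 that held TATAAA, 12 bases downstream of the RefSeq start, against 14.2% of 27025 promoters of 300 bases that held it on either strand. The GC box GGGCGG was found in none of the 3, against 35.9% of all promoters. The AP-1 motif TGANTCA, present in 7.93% of all promoters, and the TEAD motif GGAATG, present in 14.6%, were not in these windows either, on either strand.

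The genes lie on 8 chromosomes of GRCm38, and only Dcn and Lum are close neighbours. Dcn (ENSMUSG00000019929) spans chr10:97479609-97518143 and Lum (ENSMUSG00000036446) chr10:97565128-97572703, both on the forward strand. Thy1 (ENSMUSG00000032011) lies at chr9:44043384-44048579 (+), Fap at chr2:62500943-62574075 (-) and Ly6a at chr15:74994877-74998031 (-). Pdgfra spans chr5:75152292-75198215, Pi16 chr17:29317680-29330593, Dpt chr1:164796644-164824266 and Cd34 chr1:194938819-194961279, all on the forward strand. Non-coding genes on the opposite strand overlap Pdgfra, Dpt, Pi16 and Cd34, and the sources do not say whether the counting used strand, so reads of those antisense genes may be included. Ly6a belongs to a gene family with near copies: Ly6i matched it at 85.6% identity over 84.2% of its transcript, and was at 0.0 to 0.2 CPM (counts scaled to library size) in every library. A shorter stretch, 20.9% of the Ly6a transcript, matched Ly6c1 at 91.0% identity, and Ly6c1 had a mean of 58.0 CPM, so reads may be shared between them; the part of such reads in the values of Ly6a was not tested.

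Sequencing depth was even, at 18130441 to 21498200 counts per library, and the 10 genes took 0.0789% to 0.256% of them. Counts per gene ran from 175 for Fap in CTRL replicate 2 to 20023 for Dcn in AngII+2W replicate 1. The tissue label was borne out by smooth muscle markers, whose 10 genes summed to 10458 and 8102 CPM in the CTRL libraries. Adipocyte markers summed to 11717 and 13999 CPM in the same libraries, and the part of fat tissue in the values of the genes described here was not tested. AngII+3W replicate 1 stood apart from the rest: its skeletal muscle markers summed to 2762 CPM against 5.85 to 75.0 CPM in the other 7 libraries, and mitochondrial genes took 18.3% of its counts against 8.15% to 13.5%. For AngII+3W against CTRL and against AngII, calls or ranges of fold changes of the genes are also given with this library left out. AngII+3W against AngII+2W, the further fibroblast markers and the profiles over the 8 libraries are given only with it.

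Scaled by length, Dcn had the highest mean of the 10 genes in the untreated aorta and Fap the lowest. In CPM per 1000 bases of annotated exon, the CTRL mean was 53.8 ± 15.5 (SD, n = 2) for Dcn, 42.0 ± 15.0 for Dpt, 36.4 ± 0.566 for Ly6a and 34.9 ± 1.59 for Pdgfrb. Both Dcn libraries lay above both of Ly6a and of Pdgfrb, while Dpt overlapped each of these 3 genes. Below them came Pi16 at 19.4 ± 11.1, Cd34 at 15.2 ± 3.77, Thy1 at 12.2 ± 0.0585, Lum at 12.0 ± 4.57 and Pdgfra at 8.29 ± 2.64. Neighbours in this order overlapped, except that both Thy1 libraries lay just below both of Cd34. Fap, at 1.77 ± 0.450, lay below all others in both libraries. In the AngII group Dpt, at 131 ± 26.6, and Dcn, at 130 ± 26.8, did not differ beyond their spread. Lum reached 89.5 ± 8.68 CPM per 1000 bases, and both Lum libraries lay above both Pdgfrb libraries, the reverse of CTRL. With the longest coding transcript as the length, Dcn led and Fap was last in CTRL as well, at 179 ± 51.5 and 3.65 ± 0.927, and Dcn led in AngII at 431 ± 88.9 against 131 ± 26.6 for Dpt.

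**Figure D1:**
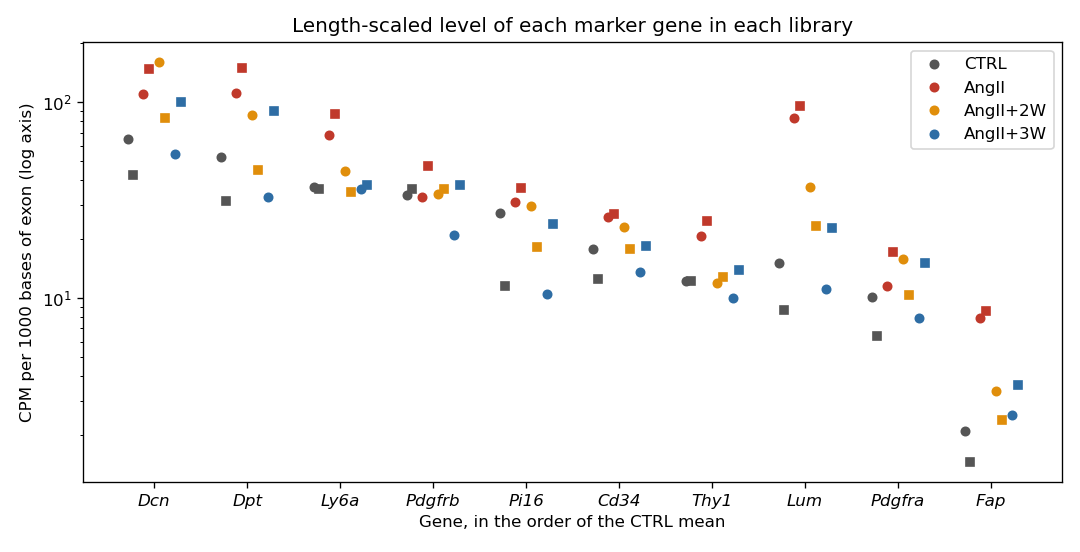
Level of each gene in CPM per 1000 bases of exon (log axis) in each of the 8 libraries, with genes in the order of their CTRL mean, colours for the 4 groups, circles for replicate 1 and squares for replicate 2. Lum moves from 12.0 in CTRL to 89.5 in AngII on this scale, while Pdgfrb is at 47.3 or less in all libraries.

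The first comparison, AngII against CTRL, asks how these genes differed between the end of the infusion and untreated mice. Effects of AngII and of the implanted pump cannot be told apart in it. The matrix gene Lum rose 7.49-fold, the protease Fap 4.65-fold and the progenitor marker Ly6a 2.12-fold, and these were the 3 of 9 genes called at an adjusted p below 0.05 (edgeR), all higher, where 2.9% of all tested genes were called higher. Both AngII libraries lay above both CTRL libraries for 8 of the 9 genes, where 24.4% of all tested genes did so. The median log2 fold change of the 9 genes was 1.09, beside -0.01 over all tested genes. Pdgfrb was the gene whose groups overlapped.

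Among the secreted matrix genes, Lum was at 37.2 and 21.4 CPM in the 2 CTRL libraries and at 204 and 234 CPM in the 2 AngII libraries. The AngII values were far above both controls, and the log2 fold change was 2.90 ± 0.412 (SE), adjusted p = 0.0150 by edgeR. Dcn, the gene with the most counts, stood at 378 and 250 CPM in CTRL and 647 and 868 CPM in AngII. Its groups did not overlap, but with a log2 fold change of 1.27 ± 0.405 it missed the threshold, adjusted p = 0.124. Dpt was at 90.7 and 54.1 CPM in CTRL and 193 and 258 CPM in AngII, again with no overlap, and its log2 fold change of 1.64 ± 0.508 had an adjusted p of 0.116. A larger fold than that of Ly6a went uncalled for Dpt and Dcn. Their control libraries differed from each other 1.68-fold and 1.51-fold, against 1.02-fold for Ly6a and 1.74-fold for Lum, which were both called. Why Dpt and Dcn missed the threshold was not tested.

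Fap, the activation protease, was at 11.8 and 8.23 CPM in CTRL and 44.9 and 48.4 CPM in AngII. Its AngII libraries differed 1.08-fold and its CTRL libraries 1.44-fold, and the groups lay far apart. The log2 fold change was 2.22 ± 0.262, with the smallest adjusted p of the 9 genes, 0.00869 by edgeR.

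Of the progenitor-type surface markers, Ly6a was at 44.4 and 43.4 CPM in CTRL and 81.6 and 105 CPM in AngII. That was a log2 fold change of 1.09 ± 0.166, adjusted p = 0.0170. Cd34 was at 130 and 91.1 CPM in CTRL and 190 and 195 CPM in AngII, with groups apart. Its log2 fold change was 0.80 ± 0.227, adjusted p = 0.0902 by edgeR. For Pi16 the control libraries were wide apart, at 174 and 73.7 CPM. The AngII libraries of Pi16, at 197 and 231 CPM, lay only just above the higher of them. Its log2 fold change was 0.79 ± 0.482, adjusted p = 0.420.

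Neither of the 2 PDGF receptor genes was called, and the difference between them was not tested. Pdgfra was at 102 and 64.4 CPM in CTRL and 116 and 172 CPM in AngII, without overlap. Its log2 fold change was 0.79 ± 0.379 with adjusted p = 0.298. Pdgfrb was at 185 and 198 CPM in CTRL and 180 and 259 CPM in AngII, so that its groups overlapped, and its log2 fold change was 0.20 ± 0.279 (95% interval -0.45 to 0.85). Of the 8 genes for PDGF ligands and proteins that activate or modulate them, 1 rose and 1 fell, where 2.9% of all tested genes were called higher and 2.2% lower. Sparc, a collagen-binding protein that also binds PDGF, rose by 1.35 (log2, adjusted p = 0.0391), and the ligand gene Pdgfd fell by 1.15 (log2, adjusted p = 0.0122). Neither call held without CTRL replicate 1, AngII replicate 1 or AngII replicate 2, and that of Sparc was also lost without CTRL replicate 2 or either AngII+2W library.

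Thy1 itself was at 36.5 and 36.7 CPM in CTRL and 62.0 and 74.3 CPM in AngII. The means of 36.6 ± 0.175 and 68.2 ± 8.70 (SD, n = 2) describe the rise for which it was chosen. T cell markers, which could also bring Thy1, summed to 16.0 and 19.7 CPM in CTRL and 16.6 and 19.5 CPM in AngII. EdgeR and DESeq2 each called 0 of 10, where they called 5.1% and 9.27% of all tested genes. Of the 10, 1 had an unadjusted p below 0.05, as did 20.2% of all tested genes in edgeR. The part of T cells in the values of Thy1 was not tested. Nerve and Schwann cell markers summed to 78.2 and 67.4 CPM in CTRL and to the lower values of 46.9 and 38.4 CPM in AngII.

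**Figure D2:**
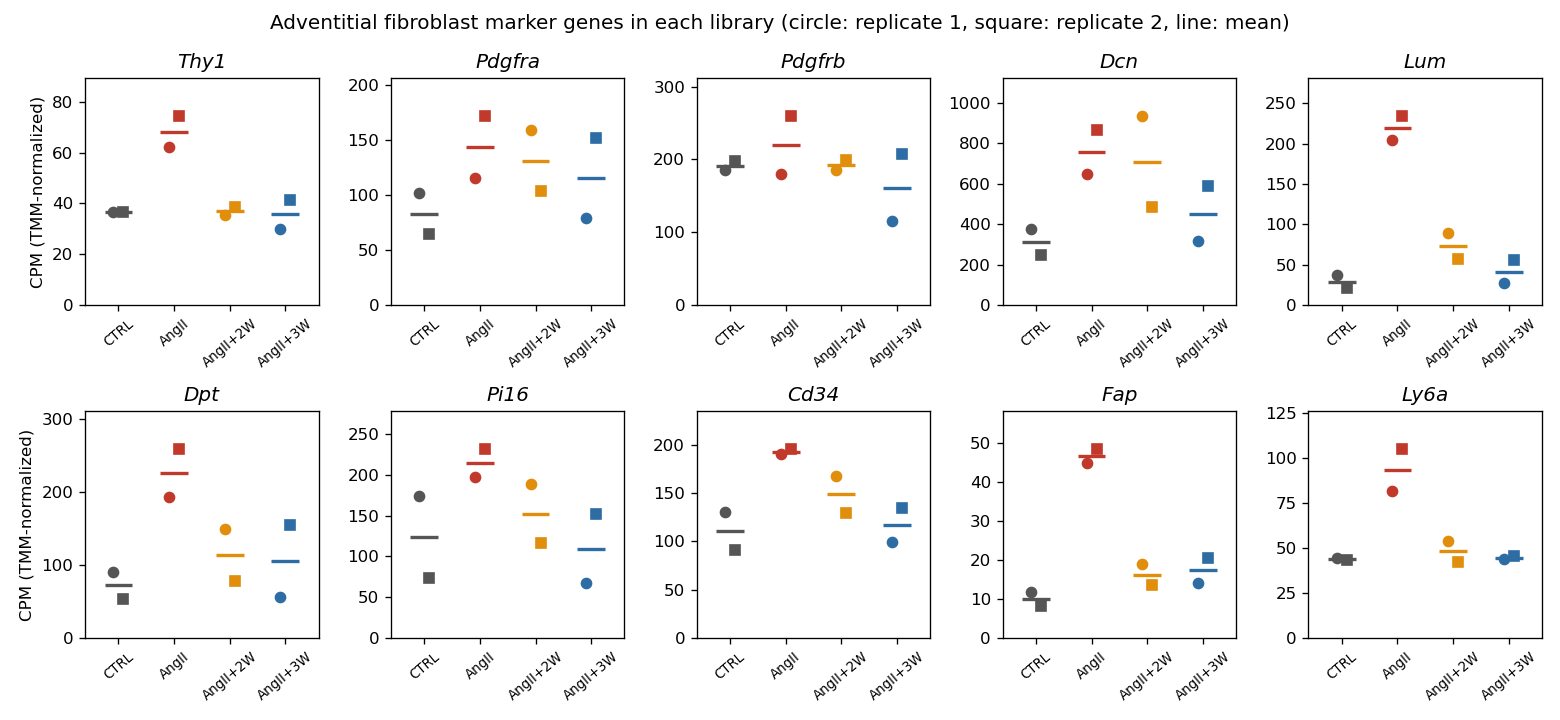
Level of each of the 10 genes in CPM in every library (axes start at 0), with a circle for replicate 1, a square for replicate 2 and a line for the group mean. The AngII points of Lum, Fap, Ly6a and Thy1 sit clear above those of the other 3 groups, while Pdgfrb overlaps between all groups.

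The 3 calls in AngII against CTRL rested on particular libraries. Without CTRL replicate 1 or without AngII replicate 2, edgeR called 0 of the 9 genes, with 7 and 4 at an unadjusted p below 0.05, where 17.4% and 12.8% of all tested genes were, and without CTRL replicate 2 only Fap was called. DESeq2 called 5 genes, adding Dcn and Cd34, where it called 9.27% of all tested genes. The log2 fold changes over all leave-one-out fits stayed between 2.55 and 3.36 for Lum, 1.97 and 2.50 for Fap, and 0.90 and 1.26 for Ly6a.

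Levels were also compared between markers, as ratios taken within a single library and so independent of the scaling between libraries. These ratios were picked after the values had been seen and carry no test. Lum to Dcn, the neighbouring genes of chromosome 10, stood at 0.0984 and 0.0855 in CTRL and reached 0.315 and 0.270 during infusion. In the AngII+2W libraries this ratio was 0.0963 and 0.118, and in the AngII+3W libraries 0.0854 and 0.0951. These lay close to the control values although Dcn itself was high in AngII+2W. Fap to Pdgfra was 0.116 and 0.128 in CTRL and 0.387 and 0.282 during infusion. After withdrawal it was 0.120 and 0.131 at 2 weeks and 0.180 and 0.135 at 3 weeks. Dpt to Pi16 separated less, with 0.523 and 0.734 in CTRL and 0.979 and 1.12 during infusion. It was 0.793 and 0.666 at 2 weeks after it, overlapping CTRL, and 0.848 and 1.02 at 3 weeks, both still above the 2 CTRL values.

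**Figure D3:**
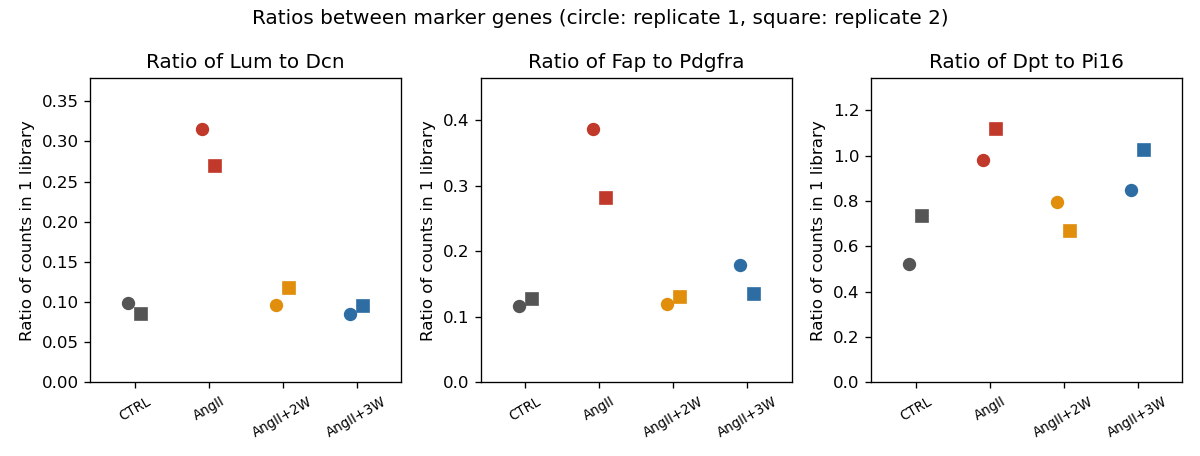
Ratio of Lum to Dcn, Fap to Pdgfra and Dpt to Pi16 within each library (axes start at 0), with circles for replicate 1 and squares for replicate 2. Lum to Dcn is 0.270 or more in both AngII libraries and 0.118 or less in the other 6.

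The second comparison, AngII+2W against CTRL, asks which genes were still away from control 2 weeks after the infusion. None of the 9 genes was called by edgeR, where 0% of all tested genes were called, and 3 (Dcn, Lum and Fap) had an unadjusted p below 0.05, as did 10.7% of all tested genes. DESeq2 called 2 (Dcn and Lum), where it called 2.17% of all tested genes. Both libraries lay above both controls for 4 of the 9 genes, where 21.7% of all tested genes did so. Dcn, at 935 and 484 CPM, was higher in AngII+2W replicate 1 than in either AngII library. Its log2 fold change against CTRL was 1.18 ± 0.404, adjusted p = 0.365 by edgeR. Lum, at 90.0 and 57.2 CPM, kept both libraries above the controls with 1.33 ± 0.393, adjusted p = 0.309. Fap was at 19.0 and 13.5 CPM, 0.70 ± 0.258 above CTRL on the log2 scale with adjusted p = 0.387 by edgeR. Pdgfra, at 159 and 103 CPM, was the remaining gene with no overlap. Thy1, at 35.7 and 38.6 CPM, and Ly6a, at 54.0 and 42.2 CPM, overlapped the controls, with log2 fold changes of 0.02 (95% interval -0.38 to 0.42) and 0.13 (95% interval -0.25 to 0.51).

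The third comparison, AngII+3W against CTRL, asks the same 1 week later. EdgeR called none of the 9 genes, where 0.285% of all tested genes were called; 1 of the 9 (Fap) had an unadjusted p below 0.05, a share no larger than the 12.5% of all tested genes, and DESeq2 called none, where it called 3.42% of all tested genes. Fap, at 14.2 and 20.5 CPM, was the gene whose libraries both lay above both controls, where 19.8% of all tested genes did so. Its log2 fold change was 0.79 ± 0.258 with adjusted p = 0.268, between 0.45 and 1.07 when single libraries were left out. Thy1 was at 30.1 and 41.5 CPM and Ly6a at 43.7 and 45.4 CPM, overlapping the controls, with 95% intervals of the log2 fold change of -0.43 to 0.37 and -0.36 to 0.41. The other 7 genes overlapped too, with AngII+3W replicate 1 the lower library in each. Dcn was at 318 and 587 CPM, Dpt at 56.8 and 155 CPM, and Pi16 at 67.0 and 151 CPM. Without AngII+3W replicate 1 the median log2 fold change of the 9 genes moved from 0.47 to 0.87, and without replicate 2 to -0.16, so the level of this group turned on which of its 2 libraries was used.

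Against the AngII group, Lum, Fap and Ly6a were lower 3 weeks after the infusion. These comparisons share the AngII libraries with the first comparison, so high values in those libraries enter both. In AngII+3W against AngII, edgeR called 3 of the 9 genes, all lower, where 1.32% of all tested genes were called lower: Lum fell by 2.40 ± 0.404 (log2, adjusted p = 0.0413), Fap fell by 1.43 ± 0.254 (adjusted p = 0.0436) and Ly6a fell by 1.07 ± 0.166 (adjusted p = 0.0318). Both AngII+3W libraries lay below both AngII libraries for 7 of the 9 genes, where 24.2% of all tested genes did so; Pdgfra and Pdgfrb overlapped. These calls did not hold when single libraries were left out, AngII+3W replicate 1 included, except without AngII+3W replicate 2. Each such fit leaves 1 library in a group. Over these fits the log2 fold change ranged from -3.06 to -1.97 for Lum, -1.76 to -1.18 for Fap and -1.27 to -0.88 for Ly6a. Fitted on the 4 libraries of these groups alone, 0 of the 9 genes were called, with 4 at an unadjusted p below 0.05. Of all tested genes, 15.2% had such a p and 0% were called.

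In AngII+2W against AngII, both libraries were lower for 6 of the 9 genes, where 27.5% of all tested genes were, and 0 were called by edgeR, where 0.163% of all tested genes were called in either direction. The log2 fold change by edgeR was -1.52 ± 0.255 for Fap (adjusted p = 0.0655) and -0.96 ± 0.166 for Ly6a (adjusted p = 0.0661). For Lum it was -1.57 ± 0.391 (adjusted p = 0.124). The 3 had an unadjusted p below 0.05 in edgeR, as did 15% of all tested genes. DESeq2 called each of them, where it called 3.99% of all tested genes. Dcn, Pdgfra and Pdgfrb overlapped between these groups. Described without a test, the log2 fold change of Thy1 against AngII was -0.88 at 2 weeks and -0.93 at 3 weeks. Between AngII+3W and AngII+2W, edgeR and DESeq2 called 0 of the 9 genes, where edgeR called 0% and DESeq2 1.26% of all tested genes, and 0 had an unadjusted p below 0.05. Lum was the one gene with no overlap, with a log2 fold change of -0.83 ± 0.389, where 19.7% of all tested genes had both libraries lower.

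**Figure D4:**
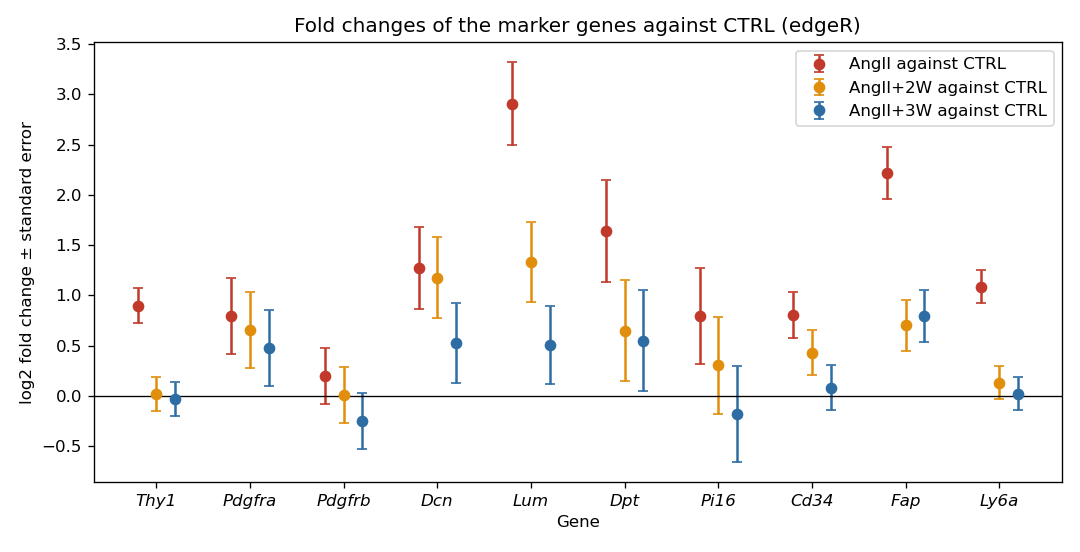
Log2 fold change against CTRL with its standard error from edgeR for each of the 10 genes in AngII, AngII+2W and AngII+3W (n = 2 libraries per group, the CTRL libraries shared). Lum and Fap stand highest in AngII at 2.90 and 2.22, and Thy1 and Ly6a are at 0.02 and 0.13 in AngII+2W.

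A shared order of the libraries ran through most of the list. In 8 of the 10 genes, all but Thy1 and Pdgfrb, the higher library was replicate 1 in CTRL and AngII+2W and replicate 2 in AngII and AngII+3W. The same order held for 17 of 20 other fibroblast genes and for 10.1% of all tested genes. Expressed against the CTRL mean, the median of the 9 genes was 0.27 and -0.33 (log2) for the CTRL replicates and 0.89 and 1.25 for those of AngII. It was 0.92 and 0.23 for the AngII+2W replicates, and -0.11 and 0.87 for those of AngII+3W. The ratio of the higher to the lower library reached 2.73 for Dpt in AngII+3W and 2.35 for Pi16 in CTRL. Thy1 and Ly6a were steadier in CTRL, at 1.01 and 1.02.

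Profiles over the 8 libraries, compared as centred log2 CPM over 9909 other genes, set Thy1 and Ly6a beside each other. The AngII libraries, whose high Thy1 values led to its choice, enter this comparison, which is a description. The root mean square change of the gene itself was 0.413 for Thy1, 0.465 for Ly6a and 1.18 for Lum. The measure of likeness is the root mean square difference, smaller for more similar profiles. Thy1 and Ly6a differed by 0.171, the smallest value for any pair of the 10 genes, and both counted Prcp among their 3 nearest genes, at 0.119 and 0.092. The other 2 nearest to Thy1 were Hcls1 (0.105), an actin-binding protein of blood cells, and Ly6e (0.112), a member of the same surface protein superfamily as Ly6a. Mmp19 was also among the 3 nearest to Ly6a. Lum lay nearest to the collagenolytic protease genes Ctsk (0.212) and Mmp2 (0.235) and to Col3a1 (0.269), the chain of fibrillar type III collagen. Fap lay nearest to Piezo2, Runx1 and Sertad4, and Dpt to Igsf10, Sfrp1 and Itga11. C1qtnf7 and Naalad2 were among the 3 nearest to Dcn, and Cyp1b1 and Medag among those to Pi16. Pdgfra was nearest to Enpp3, Adamtsl1 and Scara5, Pdgfrb to Cacnb3, Npdc1 and CAAA01147332.1, and Cd34 to Armh4, Prrx1 and Pros1. No gene of the 10 was among the 3 nearest of another.

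Of 20 further fibroblast markers, edgeR called 0 in AngII against CTRL, with 17 of 20 positive, 5 at an unadjusted p below 0.05 (20.2% of all tested genes were) and a median log2 fold change of 0.53; DESeq2 called 1, Prrx1, a mesenchymal transcription factor. Col14a1, a fibril-associated collagen, was at 294 and 167 CPM in CTRL and 575 and 982 CPM in AngII, with adjusted p = 0.0884. Serpinf1 had a log2 fold change of 1.47, adjusted p = 0.145, and Prrx1 0.89, adjusted p = 0.125. Gsn, Abca8a and Pcolce2 were the 3 below 0. In AngII+3W against AngII again 0 of 20 were called by edgeR, with 9 at an unadjusted p below 0.05, as were 17.8% of all tested genes, and 3 by DESeq2, which called 5.52% of all tested genes.

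Among genes of activated, matrix-forming fibroblasts the changes were larger in value, with a median log2 fold change of 1.33. Of 12 such genes 6 rose in AngII against CTRL and 2 fell, where 2.9% of all tested genes were called higher and 2.2% lower. The 3 with the smallest p were Col8a1, a short-chain collagen, from 16.2 and 15.8 CPM to 273 and 231 CPM, Cthrc1, a secreted protein of injured arteries, from 0.585 and 0.706 CPM to 27.8 and 30.6 CPM, and Timp1, an inhibitor of metalloproteinases, from 2.63 and 2.45 CPM to 20.8 and 41.4 CPM. The fibrillar collagen genes Col1a1 and Col3a1 rose by 3.03 and 2.83 (log2), and Loxl2, which crosslinks collagen, rose with adjusted p = 0.0198. The 2 that fell, Acta2 and Tagln, are contractile genes of smooth muscle, and 8 of 10 smooth muscle markers fell. Summed without those 2 genes, the list stood at 6030 and 4496 CPM in CTRL and at 19626 and 30516 CPM during infusion. The sums were 9813 and 7754 CPM at 2 weeks after it and 2468 and 5996 CPM at 3 weeks. Without CTRL replicate 1 or AngII replicate 2, edgeR called 0 of the 12 genes, with 10 and 8 at an unadjusted p below 0.05. The calls on the other lists that follow were lost in the same 2 fits, in which edgeR called 29 and 0 of all tested genes in place of 877.

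The progenitor-type list split in AngII against CTRL, where edgeR called 2.9% of all tested genes higher and 2.2% lower. Of 10 genes, edgeR called Wnt2 higher (2.61, log2, adjusted p = 0.0199) and Ly6c1 higher (0.68, adjusted p = 0.0225) in AngII against CTRL, and Limch1 lower (-1.53, adjusted p = 0.00753). Wnt2, a secreted signal, was scarce, at 1.41 and 0.753 CPM in CTRL and 6.53 and 6.68 CPM in AngII, and Ly6c1 is also on the endothelial list. Dpp4, a protease related to Fap, was at 11.3 and 9.41 CPM in CTRL and 16.1 and 16.5 CPM during infusion. At 2 weeks after it Dpp4 was at 21.6 and 17.7 CPM. Its adjusted p by edgeR was 0.0826 in AngII against CTRL. Sema3c, a secreted guidance protein, was at 122 and 71.8 CPM in CTRL and 54.7 and 48.1 CPM in AngII, adjusted p = 0.0772.

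Lum and Dcn belong to the small leucine-rich proteoglycans, and of the other members of that family 12 of 13 could be tested. Asporin (Aspn) was the one called higher in AngII against CTRL, from 37.1 and 20.0 CPM to 124 and 100.8 CPM, log2 fold change 1.98, adjusted p = 0.0208. Of all tested genes, edgeR called 2.9% higher and 2.2% lower in this comparison. The median of the 12 was 0.07 (log2). Biglycan (Bgn) had 0.26, osteoglycin (Ogn) -0.61 and Prelp -0.44, with no call.

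Markers of other cells that share these genes were compared beside them in AngII against CTRL, where edgeR called 2.9% of all tested genes higher and 2.2% lower. Endothelial markers, relevant to Cd34 and Ly6a, summed to 1180 and 1417 CPM in CTRL and 1450 and 1547 CPM in AngII, and 2 of 13 were called higher, Plvap and Ly6c1. Pericyte markers, relevant to Pdgfrb, summed to 1829 and 1863 CPM in CTRL and 1409 and 1316 CPM in AngII, with Higd1b called higher and Mcam lower among 8. The smooth muscle sums of 10458 and 8102 CPM in CTRL stood against 1972 and 2469 CPM in AngII. Macrophage markers summed to 421 and 303 CPM in CTRL and 792 and 1253 CPM in AngII, and 5 of 10 were called higher, Cd68, Adgre1, Mrc1, C1qb and Fcgr1. No marker on any of these lists was at 0 in every library, and the part of these cells in the values of the 10 genes was not tested.

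**Figure D5:**
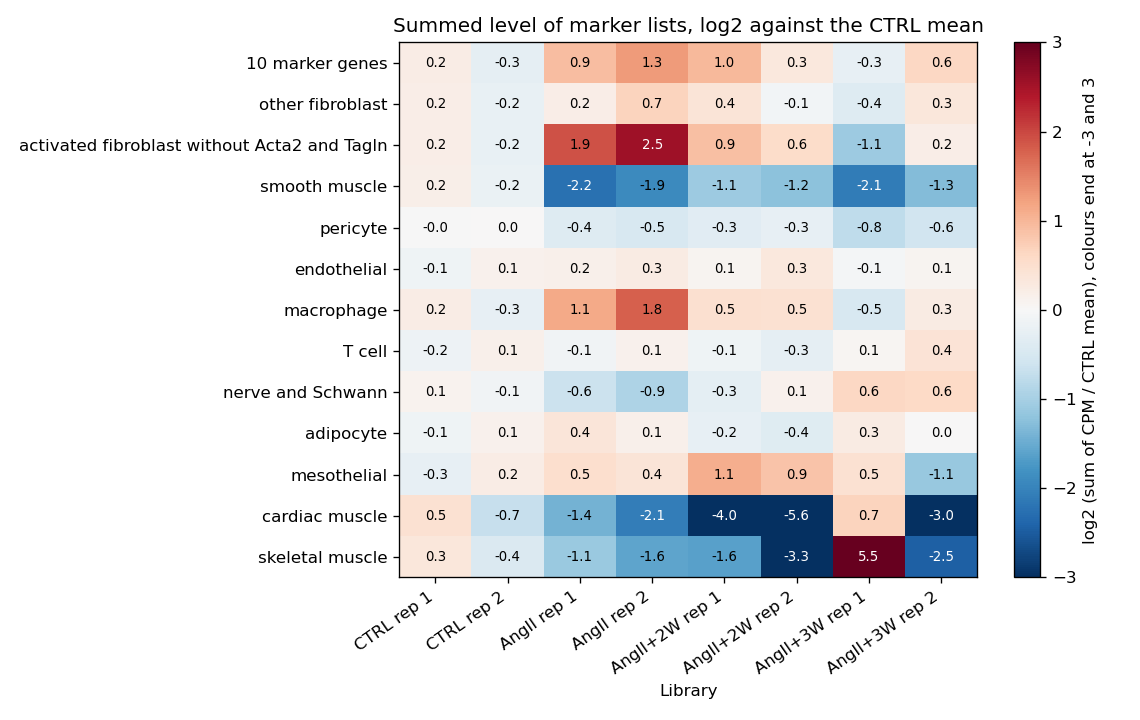
Summed CPM of each marker list in each library as log2 against the mean of the CTRL libraries, printed in each cell. The activated fibroblast genes without Acta2 and Tagln are highest in both AngII libraries, the 10 genes reach 1.3 in AngII replicate 2, smooth muscle genes are below CTRL in all 6 treated libraries, T cell genes stay between -0.3 and 0.4, and skeletal muscle genes reach 5.5 in AngII+3W replicate 1.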

How the data were processed

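Aortic RNA from 8 pools of 2 mice was sequenced as 2 libraries per group. The authors ran the ARMOR workflow, quantified transcripts with Salmon against Ensembl mouse cDNA (GRCm38.p6) and summed them per gene with tximeta. The authors deposited estimated counts (expected counts) per gene, already whole numbers and not normalized. Salmon assigns reads shared by similar transcripts by probability, which matters for Ly6a. The 11469 genes that were at 0 in every library were never tested.

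Counts were normalized by TMM after filterByExpr (minimum count 10) and fitted in edgeR 4.0.16 (R 4.3.3) with 1 model over the 4 groups and glmQLFTest for 6 comparisons, and tested on simulated data. A gene was called at an adjusted p below 0.05. CPM are TMM-normalized, standard errors come from the quasi-likelihood F statistic, and 95% intervals use its total degrees of freedom. Profiles used log2 CPM with a prior count of 2 and genes with a mean of at least 10 CPM. DESeq2 1.42.0, other scalings and filters, fits of 2 groups, a replicate block and leaving out each library were the alternatives. BLAST 2.17.0 (at least 85% identity over 100 bases) searched GENCODE transcripts for near copies, and coordinates are GENCODE's on GRCm38.

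The 10 genes and all other lists were chosen with earlier results of these data known. The text names the 10 genes, for each its 3 nearest profiles (some genes are not reported here), and from each list up to 3 genes with the smallest p in AngII against CTRL in each direction, together with small called sets, values of relatives and ratios picked after their values were seen. Replicate numbers name libraries and do not pair them. No sequence is reported for Pdgfrb.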

Additional observations from a re-analysis of the deposited data

Results flagged for a closer look

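In a direct test of AngII+3W against AngII, Lum had a log2 difference of -2.40 (55.8 CPM or less in AngII+3W, 204 or more in AngII). Fap differed in the same comparison by -1.43, with 20.5 CPM or less in AngII+3W and 44.9 or more in AngII. Ly6a differed by -1.07, with 45.4 CPM or less in AngII+3W and 81.6 or more in AngII. These 3 differences were called in the model over all groups (edgeR, adjusted p = 0.0413, 0.0436 and 0.0318) and were not called when AngII+3W replicate 1 was left out.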

How the results depend on the processing

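Of 9 genes, those called in AngII against CTRL numbered 3 and became 5 with DESeq2 and 5 with only these 2 groups fitted; leaving out single libraries gave 0 to 5. In AngII+2W against CTRL the count went from 0 to 2 with DESeq2, and in AngII+2W against AngII from 0 to 2 with every gene of at least 1 count, to 3 with DESeq2 and to 3 with only the 2 groups; leaving out libraries gave 0 to 3. In AngII+3W against AngII it went from 3 to 0 with only the 2 groups and to 0 with the replicate block (adjusted p = 0.0628, 0.0640 and 0.0501 for Lum, Fap and Ly6a), and to between 0 and 4 without single libraries. The replicate block left the other counts of members called as they were; the replicate differences correlated between groups from -0.01 to 0.33, so the numbers were not taken as pairs. Over all tested genes, edgeR and DESeq2 called 877 and 1592 in AngII against CTRL, 0 and 373 in AngII+2W against CTRL, 49 and 587 in AngII+3W against CTRL, 28 and 685 in AngII+2W against AngII, 276 and 948 in AngII+3W against AngII, and 0 and 216 in AngII+3W against AngII+2W. Without single libraries these edgeR counts ranged from 0 to 1504 in AngII against CTRL, and with the block AngII+3W against CTRL gave 4. With only the 2 groups fitted, edgeR called 6.93% of all tested genes in AngII against CTRL. That fit called 5.34% in AngII+2W against AngII and 0% in AngII+3W against AngII. In AngII+2W against AngII, 0.991% were called with every gene of at least 1 count, beside 0.163% in the model over all groups. The replicate block called 1.29% in AngII+3W against AngII. The causes were not tested.

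The signs that turned were of genes with no call. Ly6a in AngII+3W against CTRL went to -0.0042 with library totals alone and to -0.0055 with only the 2 groups. Without single libraries, log2 fold changes against CTRL ranged in AngII from -0.089 to 0.44 for Pdgfrb, and in AngII+2W from -0.044 to 0.067 for Thy1, -0.048 to 0.056 for Pdgfrb, -0.19 to 1.06 for Pi16 and -0.068 to 0.29 for Ly6a. In AngII+3W they ranged from -0.34 to 0.18 for Thy1, -0.12 to 0.87 for Pdgfra, -0.79 to 0.11 for Pdgfrb, -0.032 to 0.90 for Dcn, -0.16 to 0.96 for Lum, -0.40 to 1.10 for Dpt, -0.94 to 0.57 for Pi16, -0.21 to 0.36 for Cd34 and -0.061 to 0.045 for Ly6a. Against AngII, the range in AngII+2W was -0.48 to 0.18 for Pdgfra, -0.44 to 0.10 for Pdgfrb and -0.65 to 0.30 for Dcn, and in AngII+3W -0.91 to 0.085 for Pdgfra.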

Other observations

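Cells at the outer face of the vessel gave a mixed picture. Mesothelial markers summed to 60.3 and 83.6 CPM in CTRL and 101.4 and 93.9 CPM during infusion. At 2 and 3 weeks after it they summed to 154 and 131 CPM and to 98.5 and 32.7 CPM, and edgeR called 1 of 8, Msln (mesothelin), higher in AngII against CTRL with adjusted p = 0.0468, where 2.9% of all tested genes were called higher. Nerve and Schwann markers were higher in AngII+3W, at 113 and 110 CPM, than in AngII, at 46.9 and 38.4 CPM. EdgeR called 3 of 10 higher there, Sox10 and Cdh19 among them, where 0.285% of all tested genes were called higher, and 0 without AngII+3W replicate 1, with 6 at an unadjusted p below 0.05.

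Adipocyte markers summed to between 10040.2 and 16410.5 CPM in all libraries, and 0 of 10 were called in AngII against CTRL by edgeR, with 2 at an unadjusted p below 0.05 and 1 called by DESeq2. In this comparison edgeR called 5.1% and DESeq2 9.27% of all tested genes, and 20.2% had an unadjusted p below 0.05 in edgeR. Cardiac muscle markers ranged from 86.6 CPM in AngII+2W replicate 2 to 6530 CPM in AngII+3W replicate 1; 0 of 10 cardiac and 0 of 8 tested skeletal muscle markers were called by edgeR in AngII against CTRL, with 0 at an unadjusted p below 0.05 in either list, and DESeq2 called 0 and 1.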
